A study of Rattus norvegicus with 18 samples.

Results

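Stmn4 (stathmin-like 4, Ensembl gene ENSRNOG00000009186) is described here on its own, as 1 gene of the 26172 listed in each table, in rat L5 dorsal root ganglia (DRG) after spinal nerve transection (SNT). It was found in the tables by its Ensembl identifier, and it was chosen with its rise and its small spread among SNT libraries already known. SNT libraries came from male Wistar rats whose L5 spinal nerve had been cut 7 days before the L5 DRG was harvested, and naive libraries from rats that had no operation, so a sham operation is not part of the comparison. Each library was made from the RNA of 4 rats and averages them, with n = 3 SNT and n = 3 naive libraries throughout. The 6 poly(A) libraries went through 3 sequencing runs each, named by their approximate reads (17 M, then 25 M, then 50 M), and these runs are technical replicates. Values are normalized counts, meaning reads on the exons of a gene divided by the size factor of the run.

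Stathmins are small phosphoproteins that bind tubulin dimers and favour microtubule disassembly, and phosphorylation weakens this binding. Stmn1 is cytosolic, whereas Stmn2 (SCG10), Stmn3 (SCLIP) and Stmn4 (RB3) carry a palmitoylated N-terminal part that attaches them to Golgi-derived membranes and vesicles in neurons. In DRG neurons Stmn2 is known as a protein of growth cones and of regenerating axons. The cut of the spinal nerve severs the peripheral axons of L5 sensory neurons, and invading macrophages and reactive glia share the ganglion with them.

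The 17 M runs held 4968448 to 6154543 exonic reads per library, and the 50 M runs held 15000789 to 19031166. SNT replicate 1 stood apart from the other SNT libraries. At 50 M the 15 sensory neuron markers summed to 264497 normalized counts in it, against 133615 and 161552 in SNT replicates 2 and 3. In naive libraries this sum was 413486 to 474652. Nefh alone gave 95133 of the sum in SNT replicate 1, and 32294 and 40830 in SNT replicates 2 and 3. None of the 15 sensory neuron or 7 Schwann and satellite glial markers was at 0 in any library. The same held for the leukocyte and fibroblast markers, so the presence of reads alone does not identify the tissue. Neuron markers fell in SNT, with 13 of 15 called lower at 50 M, where 29.4% of all genes tested were called lower, and none higher. Prph and Elavl3 were not called. The sums of the 8 leukocyte markers were 13586 to 14353 in naive and 28013 to 53955 in SNT libraries, and those of 5 fibroblast markers were 83478 to 126874 in naive and 160550 to 235146 in SNT libraries. Of these, 7 of 8 leukocyte markers and 5 of 5 fibroblast markers were called higher, beside 29.2% of all genes tested and 35.3% of genes with a symbol. The 7 Schwann and satellite glial markers summed to 295044 to 542658 in naive and 359495 to 451463 in SNT libraries, and Erbb3 and Sox10 were among those called higher. What part these shifts in the makeup of the ganglion have in the values of Stmn4 was not tested. In bulk tissue, a change in the number of cells of a type and a change in RNA per cell cannot be told apart.

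Stmn4 rose about 6-fold after SNT, and no SNT library overlapped a naive library in any run. At 50 M the normalized counts of Stmn4 were 425, 401 and 475 in naive libraries 1 to 3, and 2375, 2525 and 3085 in SNT libraries 1 to 3. The lowest SNT library was 5.0 times the highest naive library. Means were 434 ± 38.1 in naive and 2662 ± 374 in SNT libraries (SD, n = 3), a ratio of 6.14. On the log2(normalized count + 1) scale the difference was 2.61 (SE 0.119, 95% interval 2.33 to 2.89), which is a fold of 5.01 to 7.43, with a limma adjusted p of 0.000113. Groups that did not overlap were common in this tissue, at 62.1% of the 17930 genes tested at 50 M, and 29.2% of tested genes were called higher in SNT at an FDR of 0.1. Of the genes tested, 285 (1.59%) had a larger log2 fold change than Stmn4. A smaller limma p-value was found for 22 genes (0.123%), all 22 of them higher in SNT. Stmn4 was chosen with its rise and small SNT spread known. Both enter these ranks, so the ranks are a description only. An exact permutation test of Stmn4 alone gave a two-sided p of 0.1, the smallest that 3 against 3 libraries allow.

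**Figure D1:**
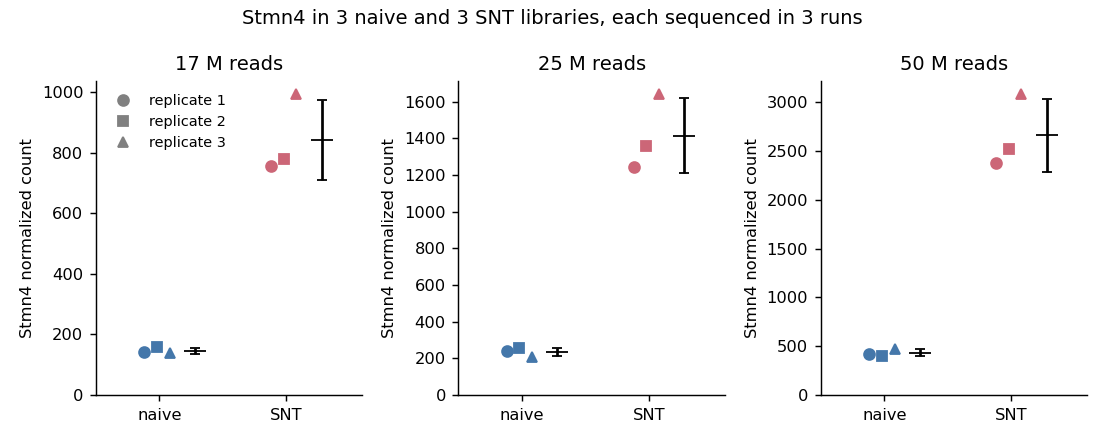
Normalized counts of Stmn4 (vertical axes, from 0 and scaled for each depth) in naive and SNT libraries, 1 panel per sequencing depth. Symbols are the 3 replicates of each group, and bars are mean ± SD over 3 libraries. SNT replicate 3 was the highest and SNT replicate 1 the lowest of the SNT libraries at every depth, and the lowest SNT library lay far above the highest naive library.

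The other runs, technical repeats of the same libraries, gave the same order of the SNT libraries. At 25 M Stmn4 had 239, 255 and 208 normalized counts in naive libraries 1 to 3 and 1244, 1358 and 1642 in SNT libraries 1 to 3. The log2 fold change at 25 M was 2.59 (SE 0.129, 95% interval 2.28 to 2.89, limma adjusted p = 0.000124), in a comparison where 27.7% of genes were called higher and 60.1% had groups that did not overlap. At 17 M the normalized counts of Stmn4 were 141, 158 and 138 in naive and 754, 780 and 993 in SNT libraries. The log2 fold change at 17 M was 2.51 (SE 0.126, 95% interval 2.22 to 2.80, limma adjusted p = 6.45e-05), with 26% of genes called higher and 56.9% without overlap. SNT replicate 3 was the highest library of Stmn4 in all 3 runs, whereas the highest naive library was replicate 2 at 17 M and 25 M and replicate 3 at 50 M.

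The number of reads behind these values differed widely between the groups. In naive libraries Stmn4 rested on 139 to 143 reads at 17 M, 200 to 243 at 25 M and 399 to 496 at 50 M. In SNT libraries it rested on 736 to 1086, 1315 to 1802 and 2325 to 3268 reads. As a share of all exonic reads, naive library 2 held 26.2 Stmn4 reads per 1000000 at 17 M (exact 95% interval 22.1 to 31.0) and 21.5 at 50 M (19.4 to 23.7). SNT library 3 held 187 per 1000000 both at 17 M (176 to 198) and at 50 M (181 to 193). At 17 M the intervals of SNT library 1 (130 to 149) and SNT library 2 (138 to 159) overlapped. Their order in that run is thus within counting error. At 50 M the intervals of SNT library 1 (135 to 146) and SNT library 2 (149 to 161) did not overlap. These intervals cover counting error only.

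The spread of Stmn4 between runs of one library was smaller in SNT than in naive libraries. On the log2 scale the SD between runs of a library averaged 0.0224 in SNT libraries, and the SD between the means of the SNT libraries was 0.216. In naive libraries the order was the other way round, with 0.115 between runs and 0.0281 between libraries. Counting alone gave an SD of 0.122, 0.0962 and 0.0689 in naive libraries at 17 M, 25 M and 50 M. In SNT libraries it gave 0.0488, 0.0376 and 0.0282. The SD between runs was thus within the range of these counting values in naive libraries and below it in SNT libraries. At 50 M the SD of log2 values of Stmn4 was 0.197 over SNT and 0.125 over naive libraries, against 0.0282 and 0.0689 from counting alone. With the reads of the 3 runs summed, naive libraries held 815, 773 and 836 reads and SNT libraries 4644, 4376 and 6156. The log2 fold change was then 2.58 (SE 0.106, limma adjusted p = 0.000121).

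The spread of Stmn4 among SNT libraries was small for a gene of its level and rise. It was compared with the genes tested at 50 M whose SNT mean was 0.5 to 2 times that of Stmn4 and whose log2 ratio of means was within 1 of its own. There were 78 such genes, 18 of them with a symbol. The SD of log2 values over the 3 SNT libraries was 0.197 for Stmn4 and 0.439 at the median of the 78, with a range of 0.0900 to 0.904. Of the 78, 5 (6.41%) had a lower SD. All 78 were measured in the same 3 libraries and are not independent of each other. An SD of 3 values is imprecise (95% interval 0.103 to 1.24 for Stmn4, for normally distributed log2 values), and this spread was known when the gene was chosen, so the rank is a description of these libraries.

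The small spread was relative to such genes and not to the whole transcriptome. Among all 17930 genes tested, the median SNT SD was 0.240 and 42.4% had a lower SD than Stmn4. In the other runs, technical repeats of the same libraries, the share with a lower SD was larger, at 7 of 81 genes (8.64%) at 25 M and 13 of 92 (14.1%) at 17 M. Of 76 genes that met the rule at all 3 depths, 3 had a lower SD than Stmn4 at every depth, among them Sema6a. As a coefficient of variation, Stmn4 had 14.0% among SNT libraries at 50 M and the median of the 78 genes was 28.9%. Among naive libraries at 50 M the SD of Stmn4 was 0.125 and the median of the 78 was 0.260, with 15 of 78 lower. The naive SD depended on the run. With the reads of the 3 runs summed, it was 0.0192 for Stmn4. The median of the 78 genes that met the rule there was 0.270, with 2 lower.

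Of the genes of like level and rise that had a symbol, those with the 3 lowest and the 3 highest SDs at 50 M are given here. Sema6a, a transmembrane semaphorin of axon guidance, had 3532, 3571 and 4317 normalized counts in SNT libraries 1 to 3 and the lowest SD of those with a symbol, 0.163. Atp2b4, a plasma membrane calcium pump, had 2297, 2241 and 2836 (SD 0.187). Ssc5d, a scavenger receptor family gene, had 1843, 1914 and 2401 (SD 0.206). In these 3 genes, as in Stmn4, SNT replicate 3 was the highest. Postn, which encodes the matrix protein periostin, had 1286, 3436 and 2176 normalized counts and the highest SD of those with a symbol, 0.709. Myof, a membrane repair protein, had 1690, 4176 and 3147 (SD 0.667), and Olfml2b, a secreted olfactomedin-domain gene, had 1745, 4046 and 2728 (SD 0.607). In these last 3 genes SNT replicate 1 was well below the other SNT libraries and SNT replicate 2 was the highest.

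**Figure D2:**
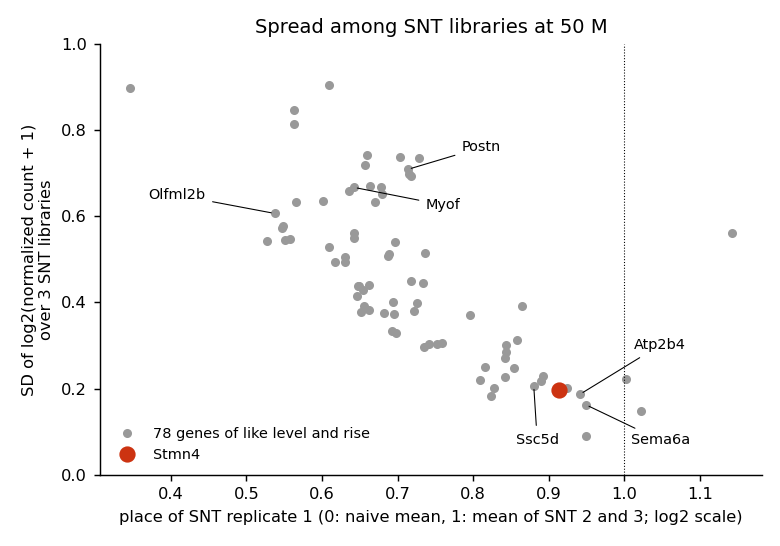
SD of log2(normalized count + 1) over the 3 SNT libraries (vertical axis) against the place of SNT replicate 1 between the naive mean (0) and the mean of SNT replicates 2 and 3 (1) on the log2 scale (horizontal axis), at 50 M. Grey points are the 78 genes of like level and rise and the red point is Stmn4, at a place of 0.913 and an SD of 0.197, both axes being computed from the same SNT libraries.

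SNT replicate 1 was nearer to the other SNT libraries for Stmn4 than for most of the 78 genes. Its place was expressed as the log2 distance of SNT replicate 1 from the naive mean divided by that of the mean of SNT replicates 2 and 3, so that 1 means equal change. For Stmn4 the place at 50 M was 0.913, and for the 78 genes the median was 0.695 (quartiles 0.643 and 0.814), with 7 of 78 higher than Stmn4. Over all 5231 genes called higher in SNT the median place was 0.656, and 15.8% were higher than Stmn4. The values for Stmn4 were 0.902 at 25 M and 0.914 at 17 M. The place is computed from the same SNT values as the spread that was known when the gene was chosen. Its rank is therefore a description and not a separate trait.

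The order of the SNT libraries also differed between Stmn4 and most of these genes. SNT replicate 1 was the lowest SNT library for Stmn4, for 74 of the 78 genes and for 80.3% of all genes called higher. The highest was SNT replicate 2 in 57 of the 78 genes and in 67.3% of all genes called higher, but SNT replicate 3 for Stmn4. This order of 1, 2 and 3 from lowest to highest was found in 18 of the 78 genes, and the order 1, 3, 2 in 56. The summed leukocyte markers followed the latter order, with 28013, 35349 and 53955 normalized counts in SNT replicates 1, 3 and 2. Without SNT replicate 1 the log2 fold change of Stmn4 at 50 M was 2.69 (SE 0.113, limma adjusted p = 5.60e-06).

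Among the stathmins with a symbol, Stmn4 was the only one called higher. Stmn1 was not paired with an identifier and was not analysed here. Stmn2 had 52649, 54679 and 48028 normalized counts in naive libraries 1 to 3 and 64480, 48486 and 62033 in SNT libraries 1 to 3, and the groups overlapped. Its log2 fold change at 50 M was 0.16 (SE 0.176, 95% interval -0.26 to 0.58, limma adjusted p = 0.476). Stmn3 fell, from 15211, 17098 and 14615 normalized counts in naive to 11179, 7969 and 9325 in SNT libraries, and its groups did not overlap. Its log2 fold change was -0.73 (SE 0.144, limma adjusted p = 0.00767).

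The other depths gave similar values for both. The log2 fold change of Stmn2 was 0.17 at both 25 M (limma adjusted p = 0.453) and 17 M (limma adjusted p = 0.455). That of Stmn3 was -0.76 at 25 M (limma adjusted p = 0.00583), where 28.3% of genes were called lower, and -0.79 at 17 M (limma adjusted p = 0.00440), where 26.4% were. SNT replicate 2 was the lowest SNT library for Stmn2 and Stmn3, and so was it for the summed sensory neuron markers, but not for Stmn4.

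Within a library, the ratio of Stmn4 to either relative was higher in all 3 SNT libraries than in any naive library. These ratios are not corrected for gene length, so they are read only between libraries. The log2 ratio of Stmn4 over Stmn2 at 50 M was -6.95, -7.09 and -6.66 in naive and -4.76, -4.26 and -4.33 in SNT libraries, a difference of 2.45 on the log2 scale, or 5.46-fold. Over Stmn3 it was -5.16, -5.41 and -4.94 in naive and -2.23, -1.66 and -1.60 in SNT libraries, a difference of 3.34, or 10.2-fold. For both ratios the groups did not overlap, and an exact two-sided permutation test gave p = 0.1, its smallest value. Stmn4 was chosen with its rise known, and neither relative was called higher. The separation therefore follows from that choice and is a description only. Of single genes tested at 50 M, 62.1% had groups that did not overlap. SNT replicate 1 had the lowest SNT ratio in each case.

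Relative to the summed sensory neuron markers, the difference between SNT and naive libraries was larger than for Stmn4 on its own. The log2 ratio of Stmn4 over this sum was -10.04, -10.21 and -9.76 in naive libraries 1 to 3 and -6.80, -5.73 and -5.71 in SNT libraries 1 to 3. The difference of 3.93 on the log2 scale is 15.2-fold (exact two-sided permutation p = 0.1, the smallest possible). The sum weighs abundant markers most, and Nefh alone gave 206480 of its 446229 normalized counts in naive library 1. With the mean log2 value of the markers in place of their sum, the difference was 3.99. The ratio in SNT replicate 1 was about 1 log2 unit below that in SNT replicates 2 and 3, so that the ratio spread more among SNT libraries (SD 0.624) than Stmn4 itself (SD 0.197). Most of the markers were themselves called lower in SNT, so this ratio holds their fall as well as the rise of Stmn4. That rise was known when the gene was chosen, so the separation of the groups is a description only.

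**Figure D3:**
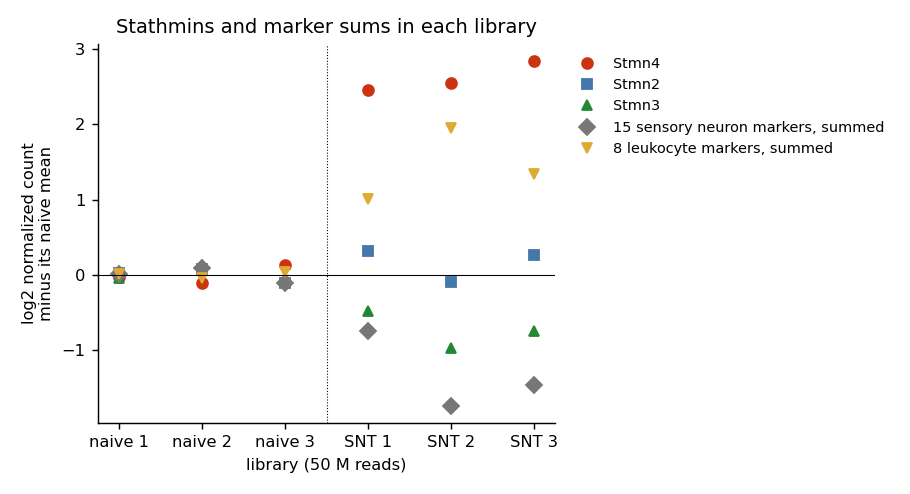
Log2 normalized counts at 50 M minus their mean over the 3 naive libraries (vertical axis), for Stmn4, Stmn2, Stmn3 and the sums of 15 sensory neuron and 8 leukocyte markers, in each of the 6 libraries (horizontal axis). Each point is 1 library. Stmn4 was highest in SNT replicate 3, the leukocyte sum was highest in SNT replicate 2, and the neuron sum was lowest there.

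Listed genes for microtubule proteins and motors, and for enzyme families that modify stathmins, moved in both directions. Their lists were drawn from genes that have a symbol at hand, of which 71.5% were called at 50 M (35.3% higher and 36.2% lower) against 58.5% of all genes tested. Of 32 genes for tubulin and microtubule-binding proteins, 10 were called higher, 12 lower and 10 were not called, with a median log2 fold change of -0.14 beside 0.01 over all genes. With libraries scaled to equal totals 11 of them were higher and 9 lower. The largest rises were Fign (1.02, SE 0.184), a fidgetin family microtubule-severing gene, Nav2 (0.93, SE 0.113), a neuron navigator, and Atat1 (0.86, SE 0.110), the alpha-tubulin acetyltransferase. The largest falls were in the microtubule-associated proteins Map7d2 (-1.48, SE 0.245), Map7 (-1.39, SE 0.303) and Mapt (-0.94, SE 0.252), which encodes tau and is also one of the neuron markers.

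Of 18 genes for microtubule motors and their adaptors, 10 were called lower, 2 higher and 6 were not called. Among all genes with a symbol, 36.2% were called lower and 35.3% higher. The median log2 fold change of the 18 was -0.33. Dync1i1, a dynein intermediate chain, fell most (-1.59, SE 0.273), followed by the kinesins Kif21a (-1.14, SE 0.225) and Kif5a (-0.83, SE 0.224), the latter a motor of axonal transport. The 2 called higher were the kinesins Kif19a (0.84, SE 0.161) and Kif13a (0.57, SE 0.103). No member of either list rose as much as Stmn4. Since Stmn4 was chosen with its rise known, and 1.59% of all genes tested rose more, this is a description only.

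Protein kinases of families known to phosphorylate stathmins were all called, 2 higher and 5 lower of 7, with a median log2 fold change of -0.63. For this list and the palmitoyltransferases below, the share called among all genes with a symbol was 71.5%. Camk2d, a calcium and calmodulin-dependent kinase subunit, rose from 3329, 3459 and 3355 normalized counts in naive to 6571, 6993 and 7675 in SNT libraries (log2 fold change 1.06, SE 0.0829). It had, like Stmn4, its highest value in SNT replicate 3. Mapk14, the p38 alpha kinase, rose by less (0.48, SE 0.0822). The other listed subunits of the same kinase fell, Camk2g (-1.20, SE 0.239) and Camk2b (-0.77, SE 0.121), as did Mapk11, the p38 beta kinase (-0.65, SE 0.166). Of 4 DHHC palmitoyltransferases, the enzyme family that attaches palmitate to membrane stathmins, Zdhhc18 was called higher (0.61, SE 0.112), Zdhhc17 lower (-0.76, SE 0.126), and Zdhhc3 (0.09) and Zdhhc20 (0.05) were not called. With libraries scaled to equal totals, all 4 were called, 3 of them higher.

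**Figure D4:**
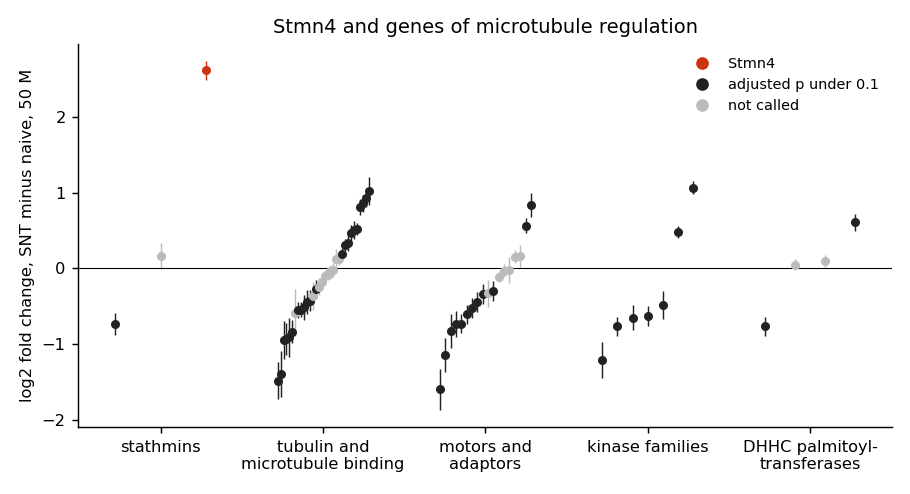
Log2 fold change of SNT over naive at 50 M (vertical axis) for each member of the 5 lists (horizontal axis), with bars of ± 1 SE. Stmn4, at 2.61, is red, black points passed a limma adjusted p of 0.1 and grey points did not. Members of the other lists lay between -1.59 and 1.06.

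The genes most like Stmn4 were sought over all 18 runs, by the root mean square difference of log2(normalized count + 1) after the naive mean of each depth was subtracted. Among 14088 genes compared, the nearest was ENSRNOG00000018659, at 0.113 log2 units, and the median gene was at 1.84. It had 234, 205 and 253 normalized counts in naive libraries 1 to 3 and 1216, 1359 and 1641 in SNT libraries 1 to 3 at 50 M, so that SNT replicate 3 was again the highest. This gene had no symbol at hand, and neither had the other 6 that were nearer than the first gene with one.

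The 5 nearest genes with a symbol were Ptpn5, Mmd, Atp2b4, Sema6a and Scube1. Ptpn5, a tyrosine phosphatase of neurons also known as STEP, was at 0.230 and had 195, 232 and 148 normalized counts in naive and 1190, 1059 and 1537 in SNT libraries. Mmd, first named for monocyte to macrophage differentiation, was at 0.244 and had 796, 749 and 762 in naive and 3591, 3068 and 4170 in SNT libraries. In both, SNT replicate 3 was the highest and SNT replicate 2 the lowest of the SNT libraries. Atp2b4 was at 0.271, with 524, 539 and 482 normalized counts in naive libraries, and Sema6a at 0.293, with 495, 493 and 485. Scube1, a secreted and cell surface EGF-domain protein, was at 0.316 and had 468, 345 and 437 in naive and 1677, 3068 and 2531 in SNT libraries.

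**Figure D5:**
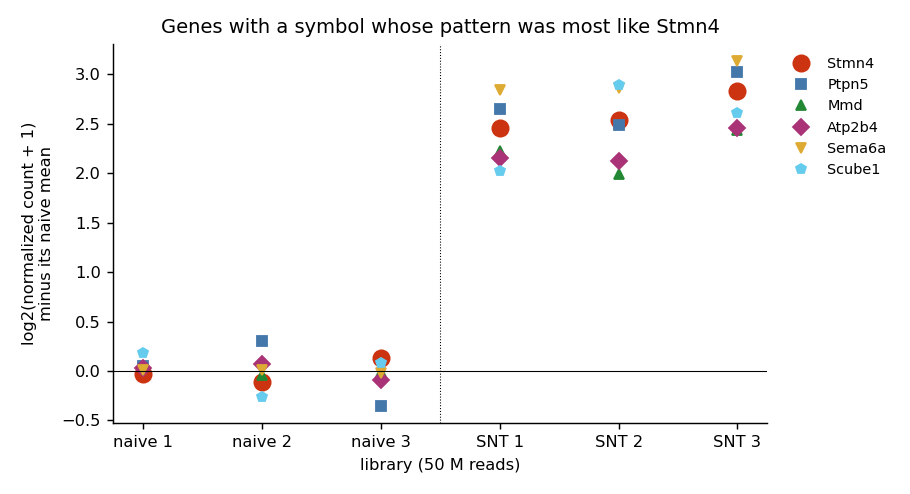
Log2(normalized count + 1) at 50 M minus its mean over the 3 naive libraries (vertical axis) for Stmn4 and the 5 genes with a symbol that were nearest to it, in each of the 6 libraries (horizontal axis). Each point is 1 library. SNT replicate 3 was the highest for Stmn4, Ptpn5, Mmd, Atp2b4 and Sema6a, and SNT replicate 2 for Scube1.

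These genes were picked for their nearness to Stmn4 in the same libraries, so what they share with it in the order of the libraries, the place of SNT replicate 1 and the fold change follows from that choice. Across the 6 libraries at 50 M Pearson's r with Stmn4 was 0.980 for Ptpn5, 0.995 for Mmd, 0.995 for Atp2b4, 0.998 for Sema6a and 0.980 for Scube1. These coefficients reflect mainly the gap between groups, since 1469 of the genes compared had an r above 0.95. Log2 fold changes at 50 M were 2.72 for Ptpn5, 2.22 for Mmd, 2.25 for Atp2b4, 2.95 for Sema6a and 2.51 for Scube1. The place of SNT replicate 1 was 0.964 for Ptpn5, 1.00 for Mmd, 0.941 for Atp2b4 and 0.949 for Sema6a, near that of Stmn4, and 0.734 for Scube1.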

How the data were processed

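Poly(A) enriched RNA of L5 DRG from pooled rats was sequenced in 34-base reads. Per the study's methods, reads were aligned to Rn5 with Bowtie with at most 1 mismatch, reads that mapped to several places were dropped, and exonic reads were counted per Ensembl gene without regard to strand, so that antisense reads and genes sharing exons are not resolved. The authors divided the counts by DESeq size factors and deposited these values (unit: signal, a normalized count) in 1 table per depth. Dividing a column by its smallest step gave back whole reads (100% of values, tolerance 0.001 reads, size factors 0.882 to 1.13). All 18 columns were used, and the numbers of reads limit precision as given beside the values.

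Groups were compared at each depth with limma 3.58.1 (R 4.3.3) on log2(normalized count + 1), a scale that understates changes of low genes, without covariates, with a variance prior following the mean. Genes with reads in at least 3 of 6 libraries were tested, two-sided, with Benjamini-Hochberg adjustment over all of them and an FDR of 0.1. edgeR 4.0.16 (quasi-likelihood, TMM) and DESeq2 1.42.0 (Wald) on recovered reads were among the alternatives. The fit was tested on simulated data. Symbols for 1986 genes came from a supplementary table, of which only a shortened copy was at hand. Like-pattern genes needed tests at all depths and a mean of at least 20 at 50 M.

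The gene, its lists and the tests were chosen with earlier results of these data known. Genes named were all matched stathmins, the 3 largest called rises and 3 largest called falls of each list (of marker lists only a few are printed), the 3 lowest and 3 highest SNT SDs among genes of like level and rise with a symbol, and the 5 nearest patterns with a symbol. ENSRNOG00000018659, Prph, Elavl3, Zdhhc3 and Zdhhc20 were added after their values were seen. No sequence of Stmn4 was used here, and the result of a marker gene is not reported here.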

Additional observations from a re-analysis of the deposited data

How the results depend on the processing

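Stmn4 was called higher in SNT under every alternative run, at each depth. Its log2 fold change ranged from 2.50 to 2.77 at 50 M (16 alternatives), 2.47 to 2.74 at 25 M and 2.39 to 2.67 at 17 M (15 each), and the highest adjusted p was 0.00377. Leaving out 1 library at a time gave 2.50 to 2.69 at 50 M, 2.47 to 2.67 at 25 M and 2.39 to 2.59 at 17 M. edgeR gave 2.63 and DESeq2 2.62 at 50 M. The highest value at each depth came from scaling to equal totals, which shifted all genes at 50 M by 0.152 (median, log2) and the share of called genes that were higher in SNT from 49.8% to 62.5%. Under that scaling 4 rather than 2 DHHC palmitoyltransferases were called, and no other count of called genes or list members moved by more than 1.5 times.

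The labels give SNT and naive libraries the same replicate numbers, but nothing ties them, and same-numbered libraries did not deviate together (correlations at 50 M of 0.0471, -0.348 and 0.176 over 14089 genes). With the replicate number as a block, the log2 fold change of Stmn4 at 50 M was 2.61 (limma adjusted p = 0.00221), and 9459 genes were called against 10497 without it. The genes named in the report that were called at 50 M kept their calls and directions under all alternatives run on them. Stmn2 was not called under any alternative.

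The share of like genes with a lower SD than Stmn4 was 11.8% in a narrower window (17 genes), 9.44% in a wider one (360 genes), 7.69% by coefficient of variation, 6.49% with equal totals, 14.1% at 17 M and 8.64% at 25 M. With the 3 runs summed, an alternative chosen after seeing the data, it was 8.97%. The difference in log2 ratio over Stmn2 lay between 2.35 and 2.60 without 1 library, that over Stmn3 between 3.22 and 3.55, and that over the neuron markers between 3.74 and 4.29. With the mean log2 value of the neuron markers in place of their sum, also chosen after seeing the data, the last was 3.99.

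With 3 libraries per group, each a pool of rats, an SD is known only roughly. Naive values of Stmn4 at 17 M rest on about 140 reads per library, so their order is within counting error. Reads of closely related sequence were discarded by the authors and could not be recovered.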
